A study of Mus musculus with 145 samples.

Results

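Psmb11, Prss16, Ctsl, Ly75 and Foxn1 are 5 mouse genes tied to the epithelium of the thymic cortex. They were taken as a named set and read from the probe sets annotated to 1 gene symbol. Each of the 5 genes had 1 such probe set among the 24922 on the array, so no choice between probe sets was needed, and they are 5 of 19752 genes with such a probe set. Their levels were followed in sorted mouse cells over 22 arrays in 10 groups of thymic epithelium and 123 arrays in 55 other groups.

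The thymic cortex is where double-positive thymocytes, which carry both CD4 and CD8, are tested for receptors that bind self peptide on MHC molecules. Cortical epithelial cells present a peculiar set of self peptides to them, cut by enzymes that other cells use little. Foxn1 is the transcription factor that thymic epithelium needs to form and to keep its identity. Psmb11 encodes beta5t, a catalytic subunit found in the thymoproteasome, which makes MHC class I peptides. Prss16 encodes the thymus-specific serine protease and Ctsl encodes cathepsin L, both of which act in the MHC class II pathway of cortical cells. Ly75 encodes DEC-205, an endocytic receptor of the mannose receptor family, also used as a surface marker of cortical epithelium and of some dendritic cells.

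FOXN1 is known to recognise a short GACGC core, so the promoter window of each gene (250 bases before to 50 bases after the start, RefSeq, GRCm38.p6) was searched for GACGC on both strands, the only motif searched. Windows were given for 4 of the 5 genes, Prss16 being the other one. Psmb11 held 2 matches, both read as GCGTC on the strand of the gene and beginning 239 and 62 bases before the start, while the windows of Ctsl, Ly75 and Foxn1 held none. Of all 32851 windows, 27.2% held at least 1 match and 8.04% held 2 or more. The windows of Psmb11 and Ly75 are printed because these genes had the 2 largest differences between cortical and medullary epithelium and differ in this motif. They run 5′ to 3′ on the strand of the gene, with the motif in capitals, from chr14:54625060-54625359 (plus strand) and chr2:60383224-60383523 (minus strand).
Psmb11: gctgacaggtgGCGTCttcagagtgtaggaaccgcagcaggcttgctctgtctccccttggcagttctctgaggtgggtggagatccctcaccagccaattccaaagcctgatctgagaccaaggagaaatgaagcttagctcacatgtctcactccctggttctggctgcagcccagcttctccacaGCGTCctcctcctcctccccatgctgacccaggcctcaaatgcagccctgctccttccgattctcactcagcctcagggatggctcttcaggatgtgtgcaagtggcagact
Ly75: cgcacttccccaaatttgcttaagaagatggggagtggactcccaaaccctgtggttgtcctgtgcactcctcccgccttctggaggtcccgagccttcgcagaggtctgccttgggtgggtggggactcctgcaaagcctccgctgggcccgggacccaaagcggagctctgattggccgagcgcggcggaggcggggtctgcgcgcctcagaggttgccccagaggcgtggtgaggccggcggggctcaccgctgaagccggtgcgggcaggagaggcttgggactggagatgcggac

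The 7 epithelial groups of C57BL/6 male mice carried titles that name the compartment and age: CEChi, CEC.Sca1+, MEChi and MEClo at 8 weeks, and MEC.Sca1+, MEChi and MEClo at 5 weeks. CEC is read here as cortical and MEC as medullary epithelium, and each group had 2 arrays except MEChi at 5 weeks, with 1. All 7 groups carried an identical sort label (EpCAM, Ly51, MHC class II and Sca1 positive, CD45 and propidium iodide negative), so only the titles separate them. A further 3 groups of 3 arrays each came from the thymic medulla of C57BL/6 mice of both sexes aged 5 weeks, sorted as CD45 and Ly51 negative and MHC class II high: MEChi.GFP+ KO, MEChi.GFP+ and MEChi.GFP-. The labels name neither the gene knocked out nor the promoter that drives GFP.

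Outside the epithelium, fat groups were CD11b- dendritic cells (2 arrays), macrophages (3) and CD11b+ dendritic cells (3) of male mice aged 45 to 52 days, C57BL/6J except for the CD11b+ cells, whose strain field reads N/A. Lung macrophages were alveolar (CD11c+ CD11b-) or CD11c- CD11b+, with 3 arrays each, from C57BL/6 males aged 6 weeks. Peritoneal F4/80hi macrophages were labelled Gata6ko or ctrl, with 3 arrays each, from males aged 9 weeks on a mixed background, and the label does not say which cells lack Gata6. Double-positive thymocytes were CD69+ or CD69-, with 3 arrays each, from males aged 6 weeks. CD4 and CD8 T cells of C57BL/6 male lymph nodes (6 weeks) were cultured with anti-CD3 and anti-CD28 beads and collected over time, with 2 arrays per time and 1 at 96 h, and the control arrays carry the same treatment label. Lymphatic endothelial cells and fibroblastic reticular cells came from subcutaneous lymph nodes of C57BL/6J males aged 6 weeks, with 2 arrays each. The CD8 effector T cells called T.8Eff.Tbet- here had 3 arrays at an age of 45 days. Their title adds spleen, OT1 and d6LisOVA, which is day 6 after injection or infection.

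Values are RMA intensities on a linear scale. They are compared between samples for a gene and never between genes. Array medians lay between 111.7 and 146.7 and array maxima between 14150 and 25430, and no array repeated another. Differences were tested with limma, and a gene was called when the p-value, adjusted by Benjamini-Hochberg over all probe sets of the fit, was under 0.05. The labels do not say whether arrays of a group came from separate animals, so these p-values measure the spread between arrays, which may be technical. In sorted bulk RNA, fewer cells of a type and less RNA per cell cannot be told apart.

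The sort genes were read first, as a check of the titles. Enpep, which encodes Ly51, had 2700 and 3509 in CEChi and 1008 and 1114 in CEC.Sca1+, against 77.5 to 198 in the 4 medullary arrays at 8 weeks. Its level therefore separates cortical from medullary titles although the label is the same. H2-Aa, an MHC class II chain, had 10952 to 11065 in CEChi and 10469.9 to 11409.7 in medullary epithelium and gave no call. Epcam was lower in CEChi, with 1206 to 1350, than in medullary epithelium, with 2327 to 3026 (log2 difference -1.02 ± 0.13 SE, limma adjusted p = 5.4e-05). Ptprc, which encodes CD45, was higher in CEChi, with 446 to 491, than in medullary epithelium, with 81.4 to 177 (log2 difference 1.99 ± 0.16 SE, limma adjusted p = 2e-06). Sca1 (Ly6a) was not analysed here.

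All 5 genes had their highest group mean over the 65 groups in CEChi. No array of another group reached the CEChi arrays for any of the 5 genes. Beyond this shared peak they fell into distinct patterns. Foxn1 was high in all 22 thymic epithelial arrays, with 900 at the lowest, against 56.3 to 158 in the 123 arrays of the 55 other groups. Prss16 reached 187 to 12265 in thymic epithelium, against 56.0 to 205 elsewhere, so only MEC.Sca1+ at 5 weeks touched the outside range. Psmb11 exceeded its outside range of 59.0 to 158 in 3 groups alone, CEChi, CEC.Sca1+ and MEClo at 8 weeks. Ctsl and Ly75 were also high outside thymic epithelium, up to 4868 and 2016. In the order of Ctsl, MEClo at 8 weeks followed CEChi, and the next groups, MEClo at 5 weeks, CEC.Sca1+ and MEC.Sca1+, overlapped one another at 4701 to 7027.

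**Figure D1:**
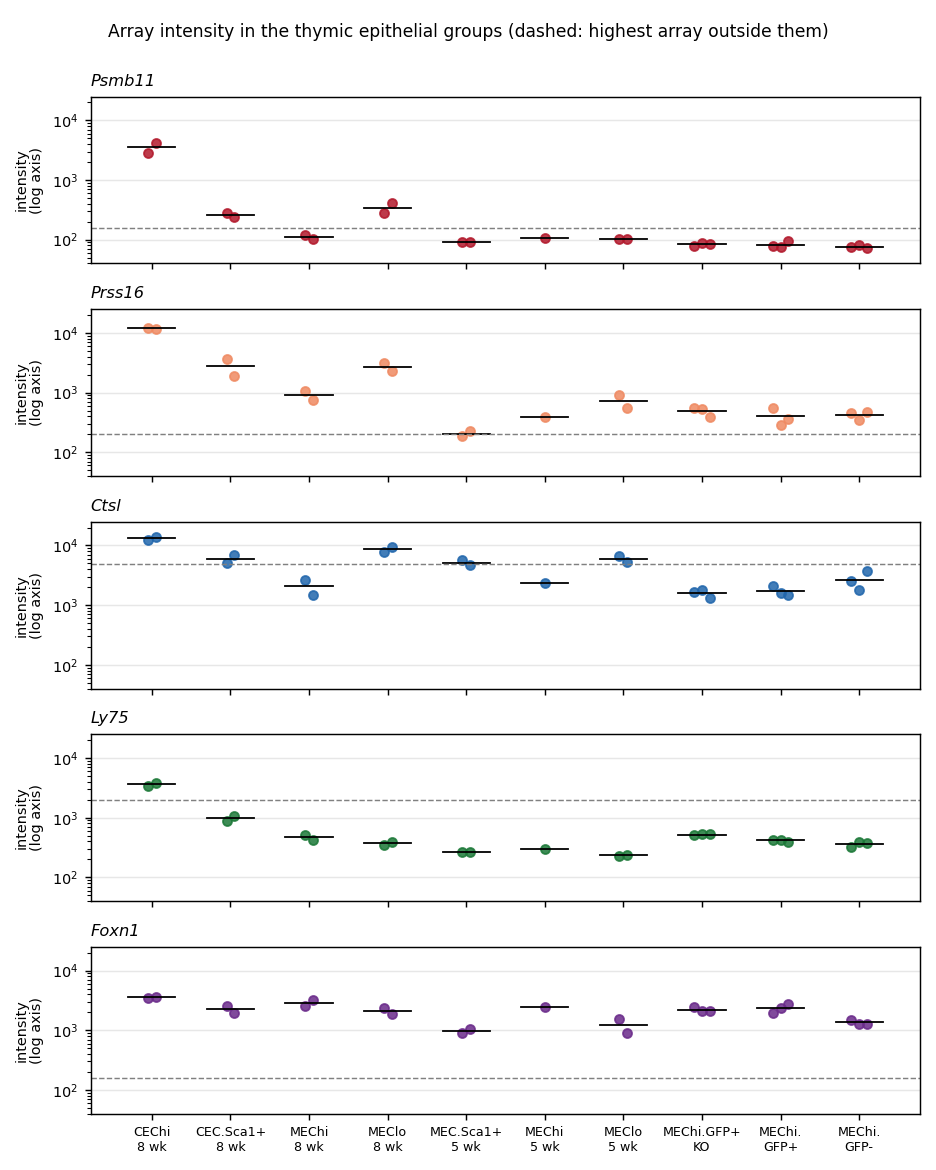
Intensity of the 5 genes (log axis) on each array of the 10 thymic epithelial groups. Points are arrays, black bars are group means, and the dashed line is the highest of the 123 arrays outside these groups. Foxn1 lies above its line in all groups, Psmb11 in 3 groups, and Ly75 only in CEChi.

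In CEChi against medullary epithelium of the same age, 4 of the 5 genes were higher and none was lower, where 19.6% of all 15068 probe sets tested were called higher. The reference was the mean of MEChi and MEClo. Over all directions 41% of probe sets were called, so a call alone is common here and the size of the difference carries more. The median log2 difference was 2.94 over the 5 genes and 0.05 over all probe sets tested.

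Psmb11 had 2888 and 4255 in CEChi, against 121 and 102 in MEChi and 276 and 414 in MEClo. The CEChi arrays lay far above every medullary array. The log2 difference was 4.18 ± 0.19 (SE, limma adjusted p = 6.3e-08), which is 18.1-fold. Ly75 had 3414 and 3819 in CEChi, against 512 and 421 in MEChi and 354 and 396 in MEClo. Here too the groups did not overlap, and the medullary arrays were close to one another. The log2 difference was 3.12 ± 0.13 (SE, limma adjusted p = 3.9e-08), or 8.66-fold.

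Prss16 had 12265 and 11707 in CEChi, against 1078 and 753 in MEChi and 3157 and 2313 in MEClo. The groups did not overlap, and MEClo sat between CEChi and MEChi. The log2 difference was 2.94 ± 0.28 (SE, limma adjusted p = 6.8e-06), or 7.68-fold. Ctsl had 12519 and 13715 in CEChi, against 2650 and 1461 in MEChi and 7869 and 9528 in MEClo. CEChi stood above all of them, but MEClo was much nearer to CEChi than to MEChi. The log2 difference was 1.67 ± 0.23 (SE, limma adjusted p = 1.2e-04), or 3.17-fold. Set against MEClo alone, a comparison added after the values were seen, Ctsl differed by 0.60 (95% interval 0.02 to 1.18, limma adjusted p = 0.13) and was not called.

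Foxn1 had 3524 and 3577 in CEChi, against 2595 and 3161 in MEChi and 2328 and 1858 in MEClo. CEChi was highest without overlap, yet the difference was small beside those of the other genes. It came to 0.54 on the log2 scale (95% interval 0.07 to 1.01, limma adjusted p = 0.063) and was not called. Against MEClo alone, where 25% of probe sets were called, it was 0.77 (95% interval 0.23 to 1.31, limma adjusted p = 0.04) and was called. Against MEChi alone, where 47.9% were called, it was 0.31 (95% interval -0.23 to 0.85, limma adjusted p = 0.33).

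**Figure D2:**
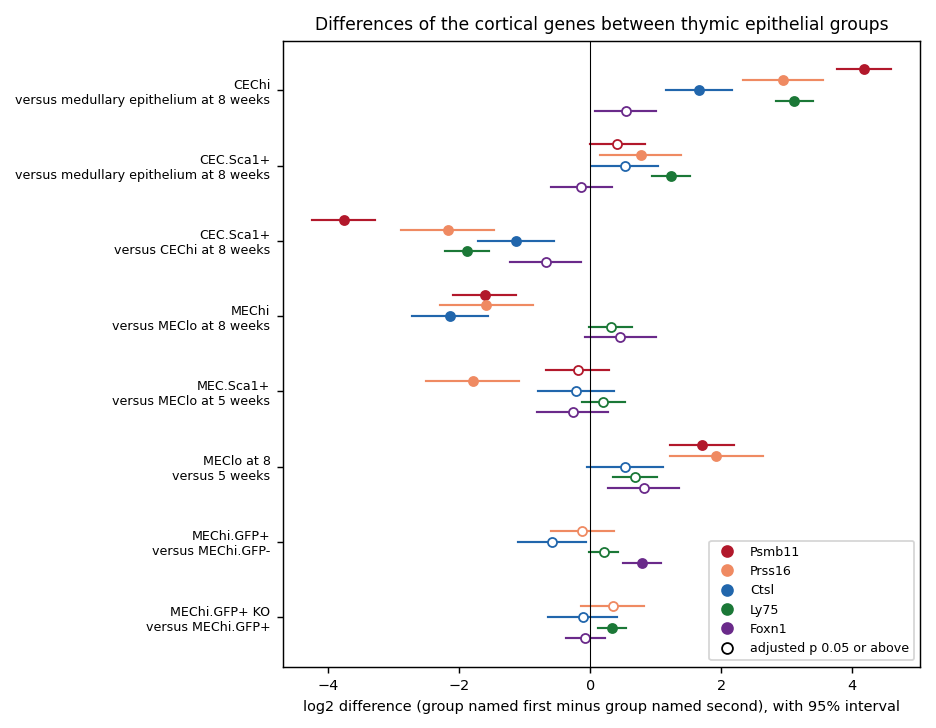
Log2 difference of each gene between thymic epithelial groups, group named first minus group named second, with 95% intervals from limma. Filled points passed an adjusted p of 0.05, and Psmb11 was too dim to be tested in the GFP groups. Psmb11, Prss16, Ctsl and Ly75 lie right of 0 for CEChi and left of 0 for CEC.Sca1+ against CEChi, while the Foxn1 points are unfilled in both.

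Markers of thymocytes moved with this comparison. All 7 tested genes of the thymocyte list (10 genes, 9 with a probe set) were higher in CEChi, and their summed intensity was 5890 to 6068 in CEChi, against 513 to 1049 in medullary epithelium. CD69- double-positive thymocytes summed to 45850 to 48680. In those thymocytes Psmb11 had 81.3 to 99.8, Prss16 77.4 to 86.0 and Foxn1 56.3 to 69.8, all within the ranges outside thymic epithelium and far below every CEChi array. Ctsl had 1126 to 1415 and Ly75 274 to 346 there, likewise below every CEChi array. The part of thymocytes in the differences between CEChi and medullary epithelium was not tested.

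The other cortical genes came from a list that was chosen with earlier results of these data known. Of 13 tested, 11 were higher in CEChi than in medullary epithelium and none was lower, with a median log2 difference of 1.53. Of all probe sets tested, 19.6% were called higher and 41% in either direction, with a median log2 difference of 0.05. After Enpep the largest differences were in Cxcl12, a chemokine that holds progenitors in the cortex, at 4.33 ± 0.16, and in Cd83, needed for stable surface MHC class II on these cells, at 3.84 ± 0.19. Ackr4, a scavenging chemokine receptor, followed at 2.56 ± 0.20 (SE, limma adjusted p at most 1.4e-06 for all 3). Of the 2 not called, Tbata differed by 0.63 ± 0.29 and Krt8, an epithelial keratin, by 0.30 ± 0.17. Of the 11 medullary genes tested, 10 were lower in CEChi, among them Spib at -4.89 ± 0.15, Cd80 at -4.16 ± 0.19, Trpm5 at -4.09 ± 0.30 and Fezf2 at -3.48 ± 0.18.

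Relatives of the 5 genes were read beside them in CEChi against medullary epithelium. There 41% of all probe sets tested were called, and 47.8% of these calls were higher in CEChi. Among the standard and immune catalytic subunits of the proteasome, Psmb9 (1.00 ± 0.19) and Psmb10 (0.61 ± 0.15) were higher in CEChi, and the other 4, Psmb5, Psmb6, Psmb7 and Psmb8, gave no call. Psmb5, the subunit whose place beta5t takes, had 2101 and 2102 in CEChi, against 1693 to 2369 in medullary epithelium. Of the 10 other cathepsins tested none was higher in CEChi and 6 were lower, with Ctsc at -3.31 ± 0.19, Ctsh at -3.16 ± 0.34, Ctsz at -2.62 ± 0.19 and Ctss at -1.87 ± 0.24 in front. Cathepsin S, which many antigen-presenting cells use where cortical epithelium uses cathepsin L, had 94.3 and 96.4 in CEChi, against 134 to 851 in medullary epithelium. Prcp, a serine peptidase of the same family as Prss16, was lower in CEChi (-1.46 ± 0.18), and Foxn3 was higher (0.58 ± 0.13). Of the 3 relatives of Ly75, only Mrc1 was bright enough to test, and it was lower (-1.24 ± 0.14).

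**Figure D3:**
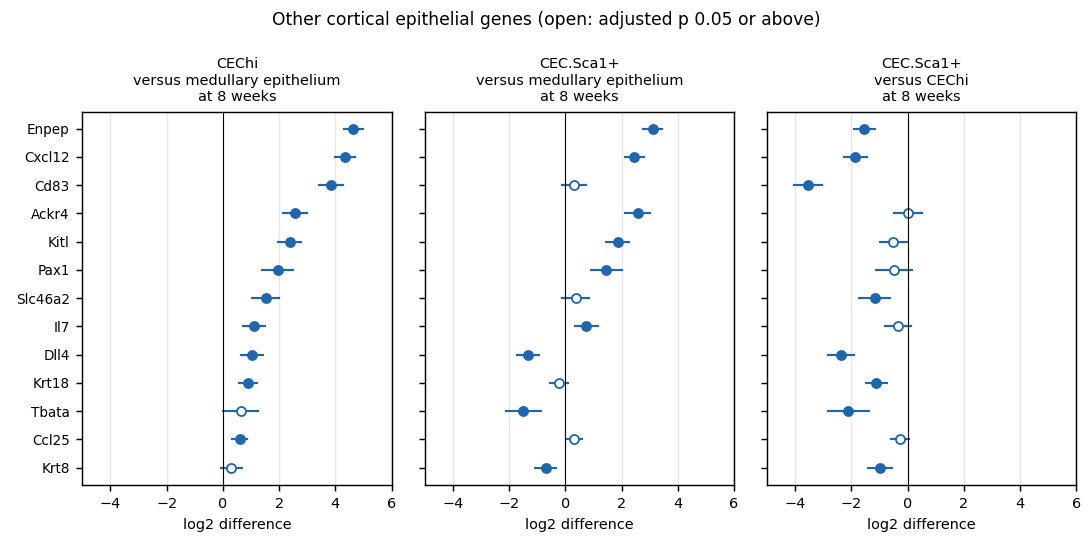
Log2 differences with 95% intervals for 13 other cortical epithelial genes in the 3 comparisons with a cortical group, first-named group minus second. Filled points passed an adjusted p of 0.05. In CEChi 11 of the 13 were higher than in medullary epithelium, and 8 were lower in CEC.Sca1+ than in CEChi.

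CEC.Sca1+ carried the same cortical title but a much lower level of 4 of the 5 genes. Against CEChi, Psmb11, Prss16, Ly75 and Ctsl were lower, where 7.22% of all probe sets were called lower and 13.2% in either direction. Psmb11 had 278 and 239 in CEC.Sca1+, against 2888 and 4255 in CEChi. The groups were more than an order of magnitude apart, with a log2 difference of -3.76 ± 0.22 (SE, limma adjusted p = 5.9e-06). Prss16 had 3702 and 1905 in CEC.Sca1+, against 12265 and 11707 in CEChi, a difference of -2.17 ± 0.32 (SE, limma adjusted p = 9.8e-04). Ly75 had 897 and 1074 in CEC.Sca1+, against 3414 and 3819 in CEChi, a difference of -1.88 ± 0.15 (SE, limma adjusted p = 1.9e-05). Neither pair of groups overlapped.

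Ctsl had 5042 and 7027 in CEC.Sca1+, against 12519 and 13715 in CEChi. The difference of -1.14 ± 0.26 (SE, limma adjusted p = 0.015) was called, but not when CEC.Sca1+ replicate 1 (-0.90, limma adjusted p = 0.1) or CEChi replicate 1 (-1.20, limma adjusted p = 0.056) or 2 (-1.07, limma adjusted p = 0.1) was left out. Foxn1 had 2577 and 1915 in CEC.Sca1+, against 3524 and 3577 in CEChi, without overlap. Its difference of -0.68 (95% interval -1.22 to -0.14, limma adjusted p = 0.1) was not called.

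Other cortical genes split in this comparison. Of 13 tested, 8 were lower in CEC.Sca1+ and none was higher, where 7.22% of all probe sets were called lower. Cd83 differed by -3.54 ± 0.22, Dll4, the Notch ligand that commits progenitors to the T lineage, by -2.36 ± 0.21, Tbata by -2.12 ± 0.33 and Cxcl12 by -1.87 ± 0.19. Ackr4 had 645 and 995 in CEC.Sca1+, against 718 and 885 in CEChi, a difference of 0.01 ± 0.23. Kitl, Il7, Pax1 and Ccl25 also gave no call. All 7 tested thymocyte markers were lower in CEC.Sca1+, which summed to 1294 and 1684, against 5890 to 6068 in CEChi. Of the 5 tested fibroblast markers 2 (Dcn and Col3a1) were higher, and that list of 7 summed to 7453 to 9280 in CEC.Sca1+, against 3112 to 3289 in CEChi. Fibroblastic reticular cells had 61.0 on both arrays for Psmb11 and 66.9 to 71.9 for Ly75. The part of either cell type in these differences was not tested.

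Against medullary epithelium, CEC.Sca1+ was higher in Ly75 and Prss16, where 39.8% of all probe sets were called. Ly75 had 897 and 1074 in CEC.Sca1+, against 354 to 512 in medullary epithelium, with no overlap and a log2 difference of 1.24 ± 0.13 (SE, limma adjusted p = 1.8e-05). Prss16 had 3702 and 1905 in CEC.Sca1+, against 753 to 3157 in medullary epithelium. These overlapped, and the call at 0.77 ± 0.28 (SE, limma adjusted p = 0.047) was lost without CEC.Sca1+ replicate 1, MEChi replicate 2 or MEClo replicate 2, with log2 differences of 0.29, 0.64 and 0.66 (limma adjusted p = 0.48, 0.13 and 0.13).

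The outcome differed with the medullary group used. Against MEChi alone (48.6% of probe sets called), CEC.Sca1+ was higher in Psmb11 (1.22 ± 0.22), Prss16 (1.56 ± 0.32), Ctsl (1.60 ± 0.26) and Ly75 (1.08 ± 0.15). Against MEClo alone (19.4% called), only Ly75 passed (1.39 ± 0.15, limma adjusted p = 5.3e-05), and the 95% intervals were -0.87 to 0.09 for Psmb11, -0.73 to 0.68 for Prss16, -1.12 to 0.04 for Ctsl and -0.45 to 0.64 for Foxn1. Both comparisons were added after the values were seen. Of the thymocyte list 6 of 7 tested genes were higher in CEC.Sca1+ than in medullary epithelium, with a sum of 1294 to 1684 in CEC.Sca1+, against 513 to 1049, and of the fibroblast list 3 of 5 were higher and 1 lower, with 7453 to 9280 in CEC.Sca1+, against 1858 to 2089. Their part was not tested. Ly75 was thus the one gene of the 5 that was higher in both cortical groups whichever medullary group was used.

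Within the medulla at 8 weeks, the 3 genes of peptide production were lower in MEChi than in MEClo, where 19.4% of all probe sets were called lower and 38.2% in either direction. Ctsl had 2650 and 1461 in MEChi, against 7869 and 9528 in MEClo, a log2 difference of -2.14 ± 0.26 (SE, limma adjusted p = 6.1e-05). Psmb11 had 121 and 102 in MEChi, against 276 and 414 in MEClo, a difference of -1.61 ± 0.22 (SE, limma adjusted p = 1.3e-04). Prss16 had 1078 and 753 in MEChi, against 3157 and 2313 in MEClo, a difference of -1.58 ± 0.32 (SE, limma adjusted p = 0.0022). In all 3 the groups were well apart. Ly75 (0.31, 95% interval -0.02 to 0.64) and Foxn1 (0.46, 95% interval -0.08 to 1.00) were not called.

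Other cathepsins moved the other way from Ctsl: Ctsh (3.22 ± 0.39), Ctse (2.84 ± 0.16), Ctss (2.20 ± 0.28) and Ctsz (2.08 ± 0.22) were higher in MEChi, and 1 of 10 tested, Ctsf, was lower (-0.63 ± 0.16). MEChi also had Aire, the regulator of tissue-restricted genes in mature medullary cells, at 3825 to 4339, against 215 to 345 in MEClo. Cortical genes were divided, with Il7 (-2.16 ± 0.21), Slc46a2 (-2.11 ± 0.25) and Cxcl12 (-1.63 ± 0.19) lower and Cd83 (1.42 ± 0.22) higher in MEChi. All 3 tested macrophage markers were higher in MEChi, and the list of 7 summed to 5754 to 5925 in MEChi, against 885 to 934 in MEClo. The defining macrophage marker Adgre1 had 116 to 120 in MEChi, against 26.7 to 28.9 in MEClo. The dendritic cell list of 6 summed to 2372 to 2778 in MEChi, against 465 to 537 in MEClo, mostly through Ccr7 (1907 to 2301 in MEChi, against 178 to 230 in MEClo), while Itgax stayed at 44.6 to 51.6 in MEChi and 45.2 to 54.1 in MEClo. Their part in the Ctsl difference was not tested.

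In MEClo, 2 of the 5 genes were called between the ages. Only 0.564% of all probe sets were called there, and 0.299% were called higher at 8 weeks. Psmb11 had 276 and 414 in MEClo at 8 weeks, against 104 and 103 at 5 weeks. The 5-week arrays sat within the outside range, and the log2 difference was 1.70 ± 0.22 (SE, limma adjusted p = 0.0059). Prss16 had 3157 and 2313 at 8 weeks, against 912 and 554 at 5 weeks, a difference of 1.93 ± 0.32 (SE, limma adjusted p = 0.022). Foxn1 (0.82, 95% interval 0.28 to 1.36), Ly75 (0.68, 95% interval 0.35 to 1.01) and Ctsl (0.54, 95% interval -0.04 to 1.12) were not called. With 2 arrays a group the calls were fragile: both were lost without MEClo at 8 weeks replicate 2 (limma adjusted p = 0.05 for Psmb11 and 0.092 for Prss16) or without MEClo at 5 weeks replicate 2 (0.069 and 0.2), and Prss16 without MEClo at 8 weeks replicate 1 (0.22). Of 13 other cortical genes tested, Dll4 alone was called (1.32 ± 0.21 SE, limma adjusted p = 0.018), higher at 8 weeks, and the list summed to 23066 to 23769 at 8 weeks, against 14402 to 17175 at 5 weeks, without overlap. The epithelial marker list of 6 summed to 23850 to 26968 at 8 weeks, against 16811 to 22404 at 5 weeks, with no member called. The part of these in the difference was not tested. Whether age or another difference between the 2 sorts moved them cannot be told apart.

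At 5 weeks, Prss16 was the only one of the 5 called between MEC.Sca1+ and MEClo, where 6.23% of all probe sets were called. It had 187 and 224 in MEC.Sca1+, against 912 and 554 in MEClo, a log2 difference of -1.79 ± 0.32 (SE, limma adjusted p = 0.0065). That call was lost without MEC.Sca1+ replicate 1 (-1.66, limma adjusted p = 0.05). The other 4 had 95% intervals of -0.67 to 0.29 (Psmb11), -0.79 to 0.37 (Ctsl), -0.13 to 0.53 (Ly75) and -0.81 to 0.27 (Foxn1). Psmb11 lay at 90.8 to 90.9 in MEC.Sca1+ and 102.9 to 104.4 in MEClo, within its range outside thymic epithelium. It passed the filter only through other groups of the fit, so its interval compares dim readings. The lone MEChi array at 5 weeks had 106 for Psmb11, 388 for Prss16, 2322 for Ctsl, 294 for Ly75 and 2409 for Foxn1.

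Among medullary cells sorted by GFP, Foxn1 was the only one of the 5 genes called. It had 1971, 2322 and 2795 in MEChi.GFP+, against 1480, 1295 and 1285 in MEChi.GFP-, with no overlap. The log2 difference was 0.79 ± 0.13 (SE, limma adjusted p = 6.7e-04), in a comparison where 49.4% of all probe sets were called. Ctsl had 2117, 1595 and 1485 in MEChi.GFP+, against 2526, 1814 and 3700 in MEChi.GFP-, a difference of -0.59 (95% interval -1.11 to -0.06, limma adjusted p = 0.061) with overlap between the groups. Ctsl was lower in MEChi.GFP+ in 3 of 3 pairs of arrays with the same number, and with the replicate number as a block Foxn1 remained the only one of the 5 called. Prss16 and Ly75 were not called, and Psmb11, at 71.8 to 93.4 in all 9 arrays, was below the filter. Of the macrophage list 3 of 6 tested genes were higher in MEChi.GFP+, with a sum of 6138 to 6661 in MEChi.GFP+, against 4687 to 5958 in MEChi.GFP-, and the part of such cells was not tested.

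In the knockout, Ly75 alone differed, where 19.1% of all probe sets were called. It had 511, 532 and 525 in MEChi.GFP+ KO, against 426, 428 and 393 in MEChi.GFP+, a small difference without overlap of 0.33 ± 0.10 (SE, limma adjusted p = 0.038). The call was lost when any of the 6 arrays was left out (limma adjusted p = 0.062 to 0.13). Foxn1 had 2431, 2113 and 2138 in MEChi.GFP+ KO, against 1971, 2322 and 2795 in MEChi.GFP+, a difference of -0.07 (95% interval -0.37 to 0.22). Of 6 tested macrophage markers 4 were lower in MEChi.GFP+ KO, with a list sum of 4551 to 4847, against 6138 to 6661 in MEChi.GFP+. The fibroblast list summed to 4367 to 4586 in MEChi.GFP+ KO, against 2548 to 2861 in MEChi.GFP+, with Dcn higher (1.18) and 2 of 5 tested genes lower. Their part was not tested.

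Outside thymic epithelium, Ly75 was high in alveolar macrophages and present in many T cell groups and in fat CD11b- dendritic cells. Alveolar macrophages, which clear inhaled particles from the airspace, had rank 2 of the 65 groups. They had 2016, 1925 and 1988, against 90.8, 76.5 and 57.3 in CD11b+ lung macrophages. The log2 difference was 4.75 ± 0.17 (SE, limma adjusted p = 3.3e-11), 26.9-fold, in a comparison where 55.3% of all probe sets were called and 34.4% were called higher. Ly75 passed the filter of that fit only through alveolar macrophages, so the difference sets them against dim readings. The alveolar arrays lay above CEC.Sca1+ and below CEChi. Markers of other cells moved with this comparison. Of 3 tested epithelial markers (6 listed), Epcam (3.70) and Cdh1 (2.80) were higher and Krt8 (-0.37) was lower in alveolar macrophages, and the list summed to 1487 to 1858 in alveolar macrophages, against 449 to 542 in CD11b+ macrophages. Of 5 tested dendritic cell markers (6 listed), Itgax, which encodes the sort marker CD11c (5.92), and Clec9a (1.89) were higher and Zbtb46 (-0.76) was lower, with a sum of 4650 to 5087 in alveolar macrophages, against 447 to 598 in CD11b+ macrophages. Among the defining markers, Krt18 had 59.5 to 67.0, Flt3 61.7 to 67.6 and Xcr1 49.5 to 61.5 in alveolar macrophages. The part of such cells was not tested. In fat, CD11b- dendritic cells had 582 and 636, against 97.8, 89.7 and 94.2 in CD11b+ dendritic cells, a difference of 2.70 ± 0.22 (SE, limma adjusted p = 7.3e-05, 15.7% of probe sets called). There 5 of 6 dendritic cell markers were higher, among them Flt3 (3209 to 3269 in CD11b- cells, against 179 to 294 in CD11b+ cells), and 6 of 7 macrophage markers were lower. Lymphatic endothelium had 150 and 164, against 71.9 and 66.9 in fibroblastic reticular cells, a difference of 1.18 ± 0.14 (SE, limma adjusted p = 7e-05, 36.3% of probe sets called), at rank 39 of the 65 groups. In the fat and lymph node fits, Ly75 likewise passed the filter only through CD11b- dendritic cells and through lymphatic endothelium. Both differences set these cells against dim readings. T cells labelled T.8Eff.Tbet- had rank 4, with 571 to 770, and control CD8 T cells rank 5, with 603 to 658. From the fourth place down, the order of T cell, dendritic cell and medullary groups was mostly not resolved, since neighbouring groups overlapped.

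**Figure D4:**
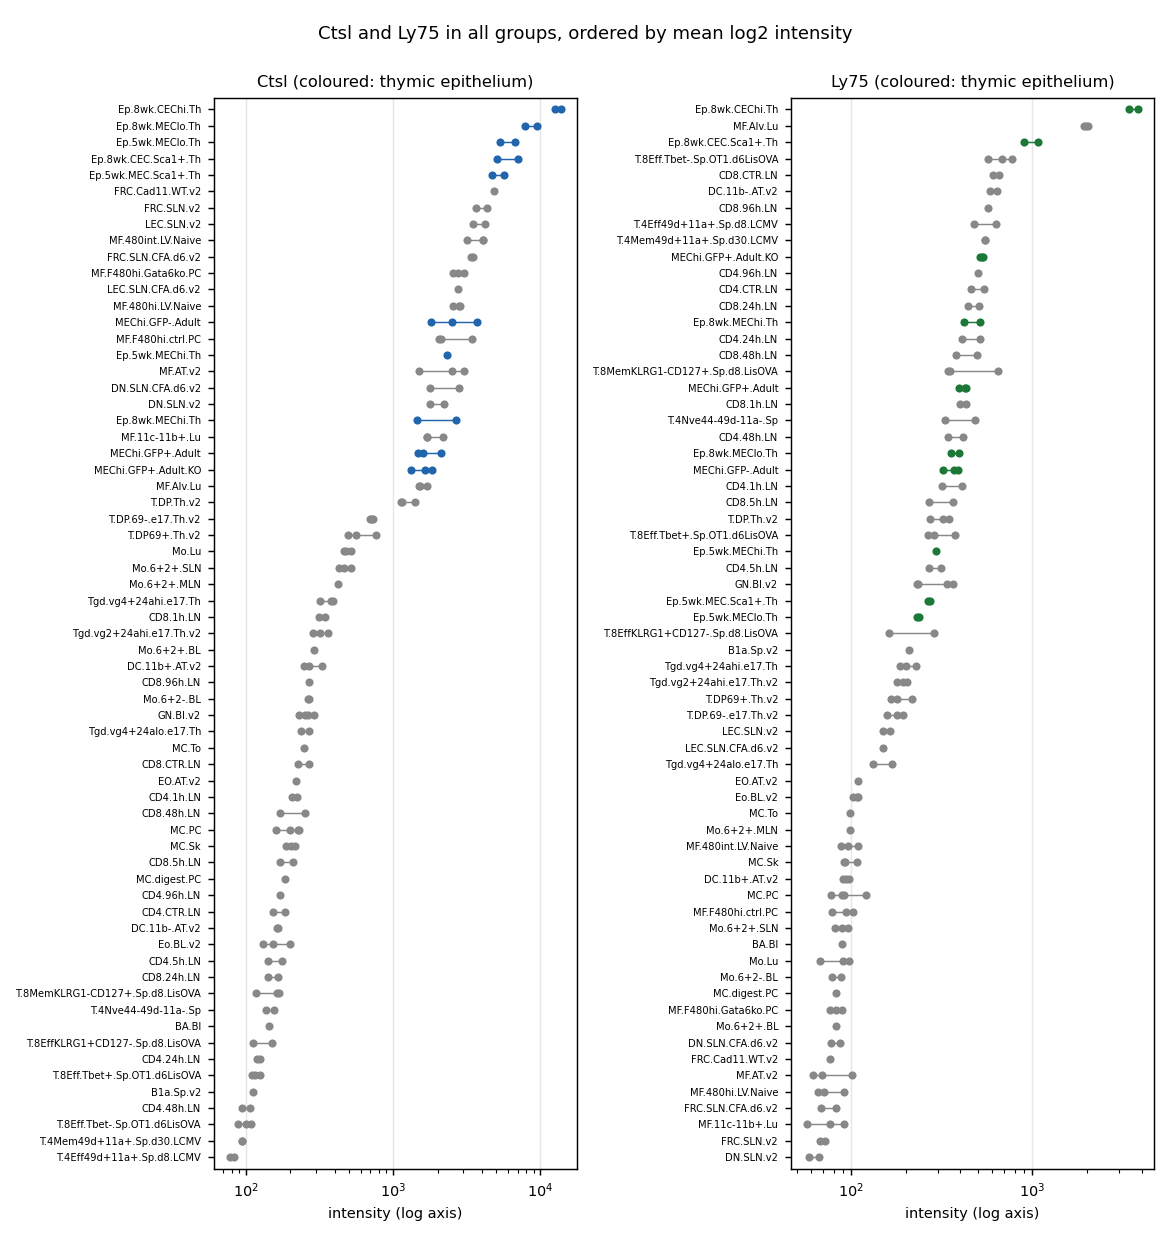
Intensity of Ctsl and Ly75 (log axes) on each array of all 65 groups, ordered by group mean, with thymic epithelium in colour and lines joining the arrays of a group. CEChi is first in both, and alveolar macrophages are second for Ly75. For Ctsl, stromal cells and macrophages follow the first 5 groups, all thymic epithelium, and the MEChi groups lie among them.

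Ctsl outside thymic epithelium was highest in stromal cells and macrophages. Lymphatic endothelium had 3466 and 4201, against 4321 and 3635 in fibroblastic reticular cells, so these groups overlapped (log2 difference of lymphatic endothelium -0.05, 95% interval -0.52 to 0.41). Fat macrophages had 1496, 3042 and 2508, against 268, 328 and 246 in fat CD11b+ dendritic cells, a difference of 3.02 ± 0.25 (SE, limma adjusted p = 1.3e-04, 15.6% of probe sets called), where 5 of 7 macrophage markers were higher and 3 of 6 dendritic cell markers lower. In the lung Ctsl was not called (-0.24, 95% interval -0.50 to 0.01) and had 1488 to 1691 in alveolar macrophages, against 1699 to 2178 in CD11b+ macrophages, without overlap. In peritoneal macrophages labelled Gata6 knockout, Ctsl had 2562, 2764 and 3024, against 3420, 2054 and 2125 in those labelled control (0.17, 95% interval -0.26 to 0.60), and none of the 5 genes was called where 6.69% of probe sets were. The Gata6 probe set itself had 2568 to 3120 in the arrays labelled knockout, against 2553 to 3221 in those labelled control, so it did not separate the labels, and which part of the gene was deleted is not given in the sources used here.

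In double-positive thymocytes both genes were lower in CD69+ cells. Ctsl had 762, 495 and 558 in CD69+ double-positive cells, against 1143, 1126 and 1415 in CD69- cells, a log2 difference of -1.04 ± 0.14 (SE, limma adjusted p = 4.8e-05). Ly75 had 215, 165 and 178 in CD69+ cells, against 346, 320 and 274 in CD69- cells, a difference of -0.75 ± 0.13 (SE, limma adjusted p = 2.9e-04). The groups did not overlap for either gene, in a comparison where 37.6% of all probe sets were called and 19.8% were called lower.

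In T cells cultured with beads, Ctsl was lower at 24 h in both lineages, the only time tested. CD8 cells had 165 and 140 at 24 h, against 266 and 224 in the control, a difference of -0.69 ± 0.18 (SE, limma adjusted p = 0.0066, 43.3% of probe sets called). CD4 cells had 125 and 119 at 24 h, against 152 and 186 in the control, a difference of -0.46 ± 0.18 (SE, limma adjusted p = 0.046, 53.4% of probe sets called). At 1 h, not tested, the arrays lay above the control without overlap, at 313 and 344 in CD8 cells and 205 and 223 in CD4 cells. At 48 h CD8 cells had 251 and 169 and CD4 cells 94.6 and 106, and at 96 h CD8 cells had 266 and CD4 cells 170, both within the control range. The CD8 difference was lost without CD8 24 h replicate 2 (limma adjusted p = 0.066) or CD8 control replicate 1 (0.072), and the CD4 difference without either 24 h array (0.094 and 0.15) or CD4 control replicate 2 (0.25). The 2 responses did not differ from each other by more than their error (-0.23 ± 0.26 SE, limma adjusted p = 0.78). Prss16, dim in these cells, was called in CD8 cells (107 and 131 at 24 h, against 89.5 and 97.9 in the control, limma adjusted p = 0.044), a call lost without CD8 24 h replicate 1 (0.33) or either control array (0.067 and 0.19). Ly75 was not called at 24 h in CD8 cells (-0.42, 95% interval -0.82 to -0.02, limma adjusted p = 0.088) or CD4 cells (-0.11, 95% interval -0.51 to 0.29), but was called in CD8 cells with quantile normalization. Its lowest arrays were at 5 h, 268 and 364 in CD8 cells and 268 and 311 in CD4 cells, against 603 and 658 in the CD8 control and 455 and 540 in the CD4 control, and these times were not tested.

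**Figure D5:**
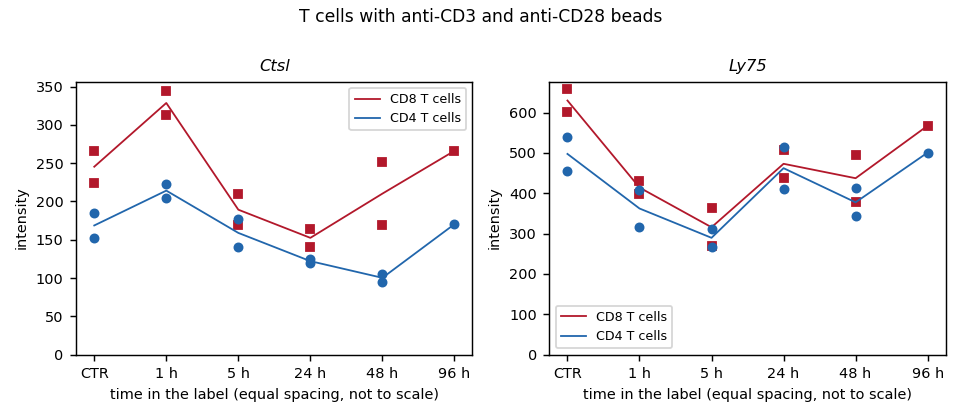
Intensity of Ctsl and Ly75 on each array of CD8 and CD4 T cells, from the control through 1, 5, 24, 48 and 96 h (equally spaced, not to scale). Points are arrays, lines join means, and 96 h has 1 array per lineage. Ctsl is lower at 24 h than in the control in both lineages, and Ly75 is lowest at 5 h in both.

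Genes whose group means ran closest to each of the 5 over the 65 groups are given by Pearson correlation, as a description. Foxn1 ran closest with Tbata (0.992), Fermt1 (0.989), Krt8 (0.986), Pls1 (0.983) and Rab15 (0.982). Prss16 ran closest with Pax1 (0.942) and Nlgn1 (0.939), and Psmb11 with Snhg11 (0.875) and Myo5c (0.869). Ctsl ran closest with Gab1 (0.910) and Ro60 (0.889), and Ly75 with Dennd2d (0.758) and Zfp459 (0.729). Ly75 thus had no gene as near to it as the others had, and 3 of its 5 nearest genes peaked in T cell groups. Among the 5 genes, Prss16 and Foxn1 ran together most closely (0.885), and Ctsl and Ly75 had the lowest correlation (-0.093), over groups that share array and normalization. Over the 13 arrays of the 7 Ep groups the order was another. Psmb11 with Ly75 (0.913) and with Prss16 (0.897) came highest, Prss16 with Foxn1 had 0.744, Ctsl with Ly75 0.525, and Ctsl with Foxn1 was lowest (0.02). These arrays include CEChi, where all 5 genes peaked. Over the 63 groups other than CEC, Psmb11 with Ly75 had 0.088 and with Prss16 0.534, against 0.43 and 0.771 over all 65. Prss16 with Foxn1 had 0.894 over those 63 groups.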

How the data were processed

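RNA of sorted mouse cells was extracted with TRIzol and biotin labelled for Affymetrix gene arrays, per the labels' protocols. The deposited values are RMA intensities on a linear scale, made by the authors with Affymetrix Power Tools and RMA per the submitters' processing notes, and log2 was taken here. The platform's annotation gave 21425 probe sets 1 symbol, 1399 several and 2098 none, and genes were named only from the first kind. The genes and lists were chosen with earlier results of these data known.

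Groups were compared with limma 3.58.1 (R 4.3.3): group means, moderated tests and Benjamini-Hochberg adjustment over each of 8 fits, which held 16 comparisons. Each fit used only the groups of its experiment and kept probe sets whose highest group mean reached the median value of that fit. Standard errors are those of the log2 difference. Genes named outside the 5 belong to lists of cortical, medullary, protease, proteasome and cell type marker genes, and the 5 genes with the highest correlation of group means were named per gene. Alternatives were no filter, a filter at the 75th percentile, quantile normalization, adding 32 to intensities, all arrays in 1 fit, a replicate block, and leaving out each array. The fits were checked on simulated data. Among medullary GFP groups, arrays with the same number deviated together (correlations 0.519, 0.474 and 0.204). Other comparisons reached similar values, 0.595 for CEC.Sca1+ with CEChi and 0.605 for CD8 T cells at 24 h with control. The correlations alone do not establish that the numbers pair the samples. The number of arrays limits the precision. Promoters came from RefSeq, GRCm38.p6.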

Additional observations from a re-analysis of the deposited data

How the results depend on the processing

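The log2 differences of genes called in the main fits were recomputed under alternatives. Of these, 298 kept their direction and call, 38 lost the call and 1 reversed. Calls gained under an alternative are not in this tally. The reversal was Prss16 in CEC.Sca1+ against MEClo alone (-0.025). Counts below are of the 5 genes. CEC.Sca1+ against medullary epithelium (2 called) gave 1 with no filter, with the 75th percentile filter or against MEClo alone, and 4 with quantile normalization, with all arrays in 1 fit or against MEChi alone. Quantile normalization and all arrays in 1 fit each gave 2 for MEChi.GFP+ against MEChi.GFP- (Ctsl added to Foxn1) and 0 for MEChi.GFP+ KO against MEChi.GFP+. All arrays in 1 fit gave 4 for fat CD11b- against CD11b+ dendritic cells and 2 for fat macrophages, and quantile normalization gave 2 for alveolar macrophages. The 75th percentile filter gave 1 for CD69+ thymocytes, 0 for lymphatic endothelium and 0 for CD8 T cells. CD8 T cells gave 1 with no filter, with 32 added and with all arrays in 1 fit. CD4 T cells gave 0 under each of these and under quantile normalization. The cause was not tested.

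Leaving out 1 array at a time gave 1 to 3 genes for CEC.Sca1+ against medullary epithelium, 0 to 1 for MEC.Sca1+ against MEClo, 0 to 3 for MEClo at 8 against 5 weeks, 1 to 2 for MEChi.GFP+ against MEChi.GFP-, 0 in every case for the knockout, 0 to 1 for CD4 and 0 to 1 for CD8 T cells. It gave 4 in every case for CEChi against medullary epithelium.

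With the replicate block the 5 genes gave 4 calls for CEChi against medullary epithelium, 1 for MEChi.GFP+ against MEChi.GFP- and 3 for CD8 T cells (Ly75 added). It lowered the probe sets called to 629 for fat CD11b- dendritic cells, against 2200 without it, and to 958 for fat macrophages, against 2178. A crossed pairing, added after seeing the data, gave 6314 probe sets for CEChi and 92 for MEClo by age. No block could be fitted for the knockout, whose arrays share no numbers with MEChi.GFP+. The 75th percentile filter called 3692 probe sets for CEChi (6185 with the median filter), and all arrays in 1 fit called 295 for MEClo by age (85 alone). Other probe set counts moved by over 1.5 times under that filter in 8 comparisons, among them MEChi against MEClo (3348, against 5754) and MEChi.GFP+ KO (1412, against 2647, and 4326 with no filter). Leaving out 1 array moved the counts to between 29 and 134 for MEClo by age, 1014 and 3113 for CEC.Sca1+ against CEChi (1994 with all arrays), 471 and 1231 for MEC.Sca1+ (938) and 387 and 1048 for the Gata6 comparison (862). With quantile normalization 59.5% of calls were higher in the arrays labelled Gata6 knockout, against 72.4% on the deposited scale, and 49.2% in CD4 T cells at 24 h, against 62.1%, where the median of all probe sets moved to -0.08, against 0.04. No gene had another probe set to try.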

Other observations

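In CEChi against medullary epithelium, where 41% of all 15068 probe sets tested were called, genes of MHC presentation were called in both directions. A call is therefore common here. Of 9 MHC class II pathway genes tested, H2-DMa, which loads peptides, was higher (0.81), and H2-Ob (-2.03), Ifi30 (-0.98) and H2-Oa (-0.75) were lower. Of 8 MHC class I pathway genes tested, Erap1, which trims peptides, was higher (0.59), Calr (-0.46) and Nlrc5 (-0.48) were lower, and the other 5, Tap1, Tap2, Tapbp, B2m and Pdia3, gave no call. Of the cystatins, inhibitors of cathepsins, Cstb was higher (0.77) and Cst6 was lower (-1.26).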
